A study of Mus musculus with 28 samples.

Results

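The response of LLC cells to TNF was measured in cells that had been given the glucose transporter inhibitor BAY-876. It is the difference between 3 libraries of BAY-876 with TNF and 3 libraries of BAY-876 alone, taken over the 12200 genes that reached 1 TPM (a level corrected for transcript length and scaled to the library total) in 3 or more of these 6 libraries. The deposited table lists 55291 genes, and the whole series holds 28 libraries. LLC is a mouse lung carcinoma line, here wild type in all groups. Both groups were pretreated with BAY-876 at 200 nM over 24 h, and 1 of them was given TNF at 20 ng/ml. The time of 32 h is listed for every group, also those without TNF, and is not taken here as the length of TNF exposure. The labels do not state whether the inhibitor was still present together with TNF. A further 3 libraries of TNF without the inhibitor and 3 of untreated control cells come from the same table. The TNF response could thus be set beside that of cells without BAY-876, which compares none of the same libraries. Both came from 1 fit of all 12 libraries, so their calls share its estimate of the spread and are not independent. The titles place 3 libraries in the combined group, although the treatment field of 2 of them carries a different compound number. The labels do not say that replicates were separate cultures, so the p-values measure the spread between these libraries, which may be technical.

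TNF binds its receptor TNFR1 and recruits TRADD, TRAF2, RIPK1 and the cIAP ligases, which activate the IKK kinases. IKK marks the inhibitor IkappaB for degradation, and the released NF-kappaB dimers enter the nucleus and switch on chemokines, adhesion molecules, survival genes and their own inhibitors. The same receptor can assemble a caspase-8 complex that kills the cell when survival signalling fails. BAY-876 blocks GLUT1, the main glucose carrier of many tumour cells, encoded by Slc2a1.

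All 10 marker genes listed for LLC cells were expressed, and most markers of other cells were below 1 TPM. The 8 T cell markers were each below 1 TPM in all 6 libraries, as were all 5 endothelial and all 4 B cell markers, while 4 of 5 natural killer cell, 3 of 5 erythroid and 5 of 8 myeloid markers were. The summed myeloid level of 18.4 to 22.3 TPM with BAY-876 and 21.9 to 24.5 TPM with TNF added was mostly Cd14, an endotoxin co-receptor. Of the LLC markers 6 were lower with TNF, 3 were higher and Axl did not pass. Their summed level, carried mostly by Vim, was 4520 to 4613 TPM in BAY-876 libraries and 2618 to 2686 TPM with TNF added. Krt8, an epithelial keratin, read 222, 225 and 216 TPM with BAY-876 and 98.96, 97.4 and 96.2 TPM with TNF added. Vim, the intermediate filament of mesenchymal cells, read 2868, 2779 and 2824 TPM against 1233, 1235 and 1145 TPM. The homeobox gene Rhox5, the chromatin protein gene Hmga2 and the hyaluronan receptor gene Cd44 were higher, by 0.32, 0.21 and 0.13 on the log2 scale. Of the fibroblast markers, Col1a1 and Lum were below 1 TPM. Pdgfra and Pdgfrb fell from means of 26.3 and 10.1 TPM to 11.1 and 4.58 TPM, and Dcn rose from 1.13 to 2.44 TPM. The list's summed level of 837.4 to 850.1 TPM against 304.3 to 346.7 TPM was mostly Col3a1. The part of these markers in the results was not tested. In bulk RNA, fewer cells of a type and less RNA per cell cannot be told apart. The 12 libraries each had 11884 to 12410 genes at 1 TPM or more, and transcripts of the mitochondrial genome took 5.4 to 6.33% of the values.

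TNF changed 46.1% of the genes in BAY-876-treated cells. By limma, a linear model fitted to log2(TPM + 1), 2469 of 12200 genes were higher (20.2%) and 3155 were lower (25.9%) at an adjusted p of 0.05. The balance of directions depended on the scaling: quantile normalization gave 2879 higher and 2718 lower, and median-ratio scaling 2918 and 2836. A change of 1 or more on the log2 scale was reached by 144 of the higher genes (1.18%) and 373 of the lower ones (3.06%). A log2 difference here is on the log2(TPM + 1) scale, so it understates the change of low genes. The largest increases were those of Mmp9, Traf1, Stab1, C3, Saa3, Nfkbie, Tnfrsf9, Cxcl2, Ccl5, Fas, Ass1, Slc6a4, Cxcl10, Nfkbia and Relb, from 4.65 down to 2.73. The largest decreases were those of Ly6c1, Tle2, Thbs1, Scara5, Mme, Sned1, Thbs2, S100a4, Cnn2, Npcd, Gsn, Ltbp3, Etv1, Tinagl1 and Clu, from -3.13 to -2.19. The rule for naming these 30 required 5 TPM or more in the higher group and libraries that did not overlap between the groups, and 53.9% of all genes tested had such libraries in either direction.

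**Figure D1:**
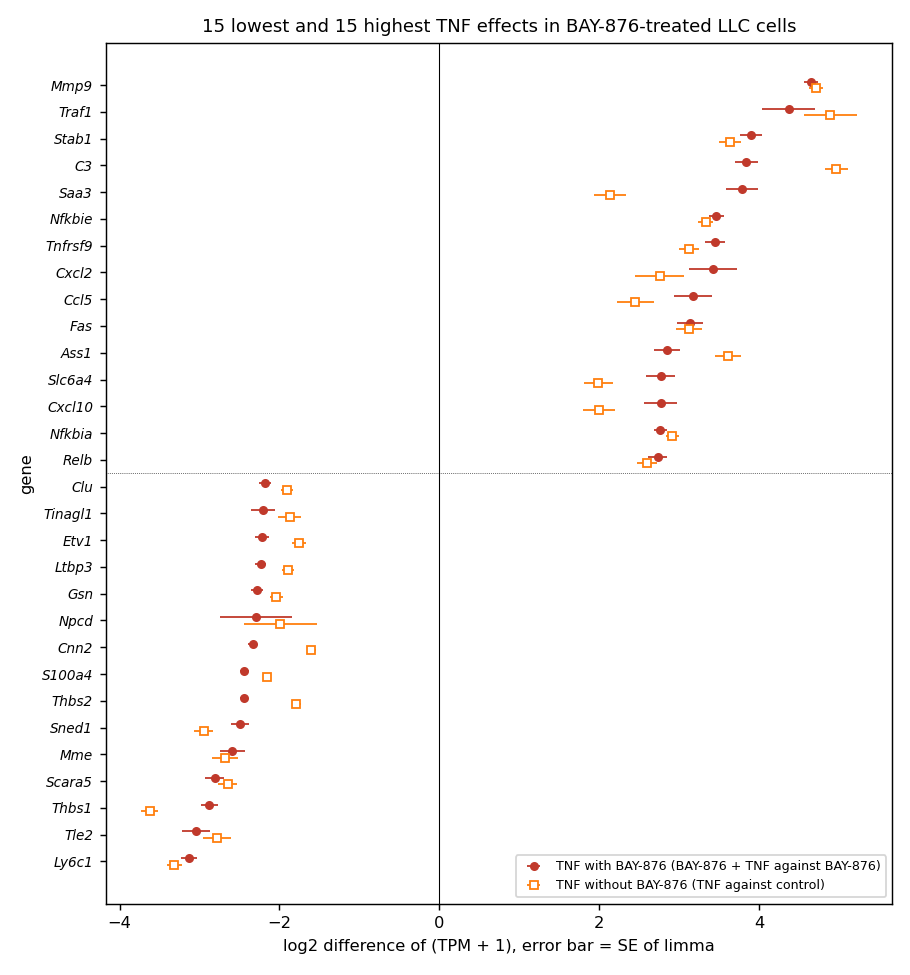
The horizontal axis is the log2 difference of (TPM + 1) with its standard error from limma for the 15 highest and 15 lowest genes, 3 libraries a group. Filled points are TNF with BAY-876 and open squares TNF without it, and all 30 genes kept their direction without the inhibitor, from 4.65 for Mmp9 to -3.13 for Ly6c1.

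Every gene of the NF-kappaB family rose, and so did most of the inhibitors that NF-kappaB itself switches on. All 5 subunits passed the test as higher, with a median log2 difference of 0.98 beside -0.05 for all genes tested. Relb, the subunit of the slower noncanonical pathway, read 4.48, 3.04 and 3.54 TPM with BAY-876 and 29.9, 31.3 and 28.4 TPM with TNF added. Nfkb2, the precursor of its partner p52, rose by 1.76, Nfkb1 by 0.92 and Rela by 0.84 on the log2 scale. Of 14 inhibitors and feedback genes tested, 8 were higher and 1 was lower, beside 20.2% and 25.9% of all genes tested. Their median was 1.32. Nfkbia (chr12:55489410-55492647, GRCm38), which encodes IkappaB alpha, read 43.4, 42.1 and 49.8 TPM against 304, 321 and 309 TPM, a log2 difference of 2.76 ± 0.08 (SE, limma adjusted p = 3.57e-10). The lowest library with TNF was therefore several times above the highest without it. Tnfaip3, the deubiquitinase A20 that shuts the pathway off, went from 1.94 ± 0.258 to 10.6 ± 0.719 TPM (SD, n = 3). Traf1, an adaptor induced by NF-kappaB, read 0.239, 0.155 and 2.51 TPM against 28.5, 36.2 and 39.6 TPM, and 1 BAY-876 library stood above the other two. The 1 lower gene was Nfkbiz, the atypical nuclear IkappaB, with a log2 difference of -0.67.

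Windows of 250 bases before the start of 5 genes that rose are shown because each holds the letters of an NF-kappaB motif (GGGA, 2 bases of any kind and TTCC), searched on both strands and printed in capitals. They are RefSeq promoter sequences on GRCm38.p6, written 5′ to 3′ along the gene's strand.
Nfkbia, chr12:55492648-55492897, minus strand: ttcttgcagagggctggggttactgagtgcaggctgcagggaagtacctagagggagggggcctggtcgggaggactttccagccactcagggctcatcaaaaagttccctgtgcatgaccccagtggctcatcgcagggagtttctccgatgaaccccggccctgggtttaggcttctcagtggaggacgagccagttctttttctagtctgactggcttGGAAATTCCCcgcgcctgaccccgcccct
Cxcl1, chr5:90890995-90891244, plus strand: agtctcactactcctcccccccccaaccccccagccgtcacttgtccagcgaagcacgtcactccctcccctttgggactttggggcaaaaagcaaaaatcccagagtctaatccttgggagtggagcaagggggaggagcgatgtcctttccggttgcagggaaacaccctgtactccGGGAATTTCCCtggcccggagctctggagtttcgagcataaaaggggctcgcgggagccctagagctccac
Cxcl10, chr5:92348890-92349139, minus strand: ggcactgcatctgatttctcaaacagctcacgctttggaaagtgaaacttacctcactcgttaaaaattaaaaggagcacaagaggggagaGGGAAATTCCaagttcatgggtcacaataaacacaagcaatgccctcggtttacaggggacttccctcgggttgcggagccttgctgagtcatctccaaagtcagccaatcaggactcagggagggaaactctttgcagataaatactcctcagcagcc
Csf1, chr3:107760470-107760719, minus strand: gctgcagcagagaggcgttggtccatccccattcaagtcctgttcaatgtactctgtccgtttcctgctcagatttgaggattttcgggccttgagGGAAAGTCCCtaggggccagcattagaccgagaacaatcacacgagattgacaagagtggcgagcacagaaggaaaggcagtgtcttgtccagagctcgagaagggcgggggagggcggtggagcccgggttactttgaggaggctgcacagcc
B2m, chr2:122147437-122147686, plus strand: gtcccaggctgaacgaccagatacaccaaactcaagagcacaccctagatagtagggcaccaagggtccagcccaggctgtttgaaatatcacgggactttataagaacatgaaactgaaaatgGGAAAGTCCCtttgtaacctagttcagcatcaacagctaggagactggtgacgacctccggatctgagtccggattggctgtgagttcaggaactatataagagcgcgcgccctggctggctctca
In Nfkbia the last base of the match lay 20 bases before the start, in Cxcl1 61 bases, in B2m 117, in Csf1 145 and in Cxcl10 150 bases. The match in Cxcl1 is a pair that overlaps by all but 1 base, which gives the longer run of capitals. The window of Cxcl2 also held an overlapping pair, at 87 and 88 bases. The windows of Cxcl10 and B2m also held the interferon response motif (GAAA, 2 bases of any kind and GAAA), and that of Cxcl10 the AP-1 motif TGANTCA, and no match of these shared a base with the NF-kappaB match. The NF-kappaB letters were found in 1.21% of all 32851 windows and in 125 of the 8994 tested genes with a window (1.39%). They were in 36 of 1913 genes called higher (1.88%) and 27 of 2443 called lower (1.11%). Among genes changed by 1 or more they were in 9 of 103 that rose (8.74%) and in 2 of 264 that fell (0.758%). The AP-1 motif was in 13.6% of those that rose and 12.5% of those that fell, against 5.16% of the tested genes and 6.75% of all windows. The gamma-activated motif (TTC, 3 bases of any kind and GAA) was in 15.5% and 9.47%, against 6.86% and 7.02%. The interferon response motif was in 2.91% and 3.41%, against 2.92% and 2.98%. Each motif was counted on its own, whether or not it shared bases with another. A match is a description of the sequence and not a site shown to be bound, and the windows of Mme and Ifit2, which fell, held one too.

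The TNF receptors themselves fell. Tnfrsf1a, which encodes TNFR1, read 58.8, 61.5 and 60.7 TPM with BAY-876 and 45.6, 45.8 and 46.7 TPM with TNF added. Tnfrsf1b, which encodes TNFR2, read 17.1, 16.1 and 16.9 TPM against 9.75, 10.2 and 9.57 TPM, a log2 difference of -0.71. In both, every library with TNF lay below every library without it. Traf2, the adaptor of the receptor complex, rose from 15.7 ± 0.636 to 32.3 ± 0.277 TPM (SD, n = 3), where libraries also did not overlap. Ikbkb, an IKK subunit, and the kinase gene Ripk1 passed as higher by 0.31 and 0.20 with limma adjusted p of 0.0226 and 0.0337. Of 17 genes of the receptor complex 3 were higher and 5 lower, a share of calls near that of all genes tested. Both missed the threshold in a fit of only the 6 libraries compared, and Ripk1 with a replicate block. Ikbkb missed it without replicate 1 or 2 of either group and Ripk1 without replicate 2 or 3 of BAY-876 or replicate 1 or 3 of BAY-876 with TNF. Across these settings limma's adjusted p was 0.0521 to 0.105.

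Death-related genes moved in both directions. Of 11 genes of the death complex 5 were higher and 3 were lower, beside 20.2% and 25.9% of all genes tested. Their median of 0.19 was 0.08 without replicate 3 of BAY-876 with TNF. Fas, a death receptor, read 0.119, 0.435 and 0.130 TPM with BAY-876 and 8.28, 9.66 and 11.5 TPM with TNF added, and Casp4, an inflammatory caspase, rose by 1.44 on the log2 scale. Cflar, which encodes the caspase-8 inhibitor c-FLIP, went the other way, from 25.1, 25.4 and 25.8 TPM to 16.6, 14.6 and 15.2 TPM. The libraries of Casp4 and Cflar did not cross between the groups, and for Fas the naming rule required this. Casp8, the initiator caspase, fell by 0.24 on the log2 scale. In the Bcl2 family, 4 of 9 genes tested were higher and 3 were lower, beside the same shares of all genes. The survival genes Bcl2 (11.8 ± 0.111 to 5.59 ± 0.311 TPM) and Bcl2l1 (29.1 ± 1.97 to 21.2 ± 0.163 TPM) fell, and the killer genes Bbc3 (0.93) and Bak1 (0.30, log2) rose. These were the 4 genes of smallest p in the family, and its other called members are not described here.

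Secreted attractants of immune cells rose strongly. Of 9 chemokine genes tested 6 were higher and 1 was lower, beside 20.2% and 25.9% of all genes tested. Their median was 2.12. Ccl2, which draws monocytes, read 278, 318 and 283 TPM with BAY-876 and 1313, 1460.2 and 1553 TPM with TNF added, the highest level of any chemokine here. Cxcl1 and Cxcl2, which draw neutrophils, read 11.3 ± 0.819 and 4.22 ± 2.49 TPM against 47.7 ± 3.44 and 51.3 ± 6.43 TPM (SD, n = 3). Cxcl10, a ligand of CXCR3, a receptor on T cells, went from 0.788, 1.54 and 0.540 TPM to 11.6, 10.9 and 13.7 TPM. Ccl5, which draws T cells, was listed at 0 in all 3 BAY-876 libraries and read 8.85, 5.60 and 10.4 TPM with TNF. The 1 gene that fell was Ackr3, a scavenger receptor for chemokines, with a log2 difference of -1.62.

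Among cytokines and growth factors 6 of 9 rose and none passed as lower, beside 20.2% and 25.9% of all genes tested. Their median was 0.58. Csf1, the macrophage growth factor, read 88.5, 95.9 and 92.2 TPM against 198, 209 and 202 TPM. Lif, Il23a and Hbegf, a ligand of the EGF receptor, rose by 1.26, 1.16 and 1.57 on the log2 scale. Il6, Il1a, Il1b, Csf2 and Csf3 did not reach the expression filter. Without replicate 2 of BAY-876, 2 members of this list passed as lower, and without replicate 1 of BAY-876 the median was 0.88. Of 7 acute-phase and innate defence genes 5 rose, again beside 20.2% of all genes tested. Their median of 1.67 was 1.06 without replicate 2 or 3 of BAY-876 with TNF. Saa3, an acute-phase apolipoprotein, read 0.661, 1.63 and 1.18 TPM with BAY-876 and 32.4, 27.5 and 25.1 TPM with TNF, and C3, the central complement protein, read 0.730, 0.172 and 0.120 TPM against 17.9, 18.2 and 17.5 TPM. Slpi, a secreted protease inhibitor, read 10.2, 4.94 and 12.7 TPM against 61.4, 58.3 and 55.9 TPM. The groups did not overlap in Slpi, and the naming rule required the same of Saa3 and C3.

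Class I antigen presentation rose in part. Of 18 genes of the list 8 were higher and 4 lower, beside 20.2% and 25.9% of all genes tested. The median was 0.37, and 2 were lower under quantile normalization and under median-ratio scaling. Without replicate 2 of BAY-876 with TNF, which left 17 genes, the median was -0.0015, and without replicate 1 of that group 2 were lower. H2-K1, a class I heavy chain, read 69.6, 63.3 and 54.5 TPM with BAY-876 and 196, 200.5 and 184 TPM with TNF added. Tapbp, the tapasin that loads peptides onto it, read 81.7, 80.1 and 72.9 TPM against 237, 229 and 218 TPM. B2m, the shared light chain, rose by 0.59 and H2-D1 by 0.58. The peptide transporter genes did not pass: Tap1 had a log2 difference of -0.13 (limma adjusted p = 0.316) and Tap2 of -0.04 (limma adjusted p = 0.515). The heavy chain genes are near copies of one another, so how the authors' counting split reads between them is uncertain.

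Genes of the immunoproteasome, which cuts peptides for class I molecules, rose in 4 of 5 cases, with a median of 0.64. For comparison, 20.2% of all genes tested rose. Psmb10 went from 26.2 ± 2.85 to 58.4 ± 0.774 TPM and Psmb8 from 24.5 ± 1.13 to 45.7 ± 0.324 TPM (SD, n = 3). Psmb9, the third inducible catalytic subunit, was the exception, with overlapping libraries at 5.86, 5.27 and 7.12 TPM and 5.96, 5.51 and 3.93 TPM. The 3 catalytic subunits that they replace, Psmb5, Psmb6 and Psmb7, rose as well, by 0.48, 0.33 and 0.46 on the log2 scale.

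Of 19 interferon-stimulated genes that passed the filter 4 were higher and 5 were lower, which is 47.4% called beside 46.1% of all genes tested, and quantile normalization gave 7 higher and 3 lower. Only 2 were higher without replicate 2 of BAY-876 or without replicate 1 or 3 of BAY-876 with TNF. Ifit2 and Ifi27 fell by 0.99 and 0.93 on the log2 scale, and Trim25 and Bst2 rose by 0.45 and 0.28. Among signalling factors 8 of 17 rose and 4 fell, beside 20.2% and 25.9% of all genes tested. Irf1, a transcription factor that NF-kappaB and interferon both induce, read 7.77, 7.94 and 9.21 TPM with BAY-876 and 24.5, 25.7 and 25.3 TPM with TNF. Socs3, a feedback inhibitor of JAK kinases, went down from 19.03, 21.1 and 19.5 TPM to 5.78, 6.57 and 5.36 TPM, and Stat2 fell by 0.96. For both Irf1 and Socs3 the groups did not overlap.

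Immediate-early factors rose in 11 of 14 cases and fell in 2, beside 20.2% and 25.9% of all genes tested. Their median was 0.63. Junb, an AP-1 subunit, read 19.3, 18.7 and 18.8 TPM with BAY-876 and 75.7, 71.9 and 77.9 TPM with TNF added. Myc, the growth regulator, read 436, 404 and 430.3 TPM against 1136, 1067 and 1012 TPM. Of the cell cycle genes 6 of 25 rose and 5 fell, a share of 44% beside 46.1% of all genes tested, and quantile normalization gave 4 and 10. Ccne1 and Ccnd2, cyclins of the first gap phase, rose by 0.40 and 0.44, and Ccnb2 and Ccna2, cyclins of mitosis and replication, fell by 0.73 and 0.24.

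Among other ligands and receptors of the TNF superfamily 4 of 10 rose and 1 fell, a share of calls near that of all genes tested, with a median of -0.04. Only 2 of 9 rose without replicate 2 or 3 of BAY-876 with TNF, and 2 fell without replicate 1 or 2 of that group. Tnfrsf9, the costimulatory receptor 4-1BB, read 2.29, 1.66 and 2.53 TPM with BAY-876 and 31.1, 35.8 and 32.9 TPM with TNF added. Tnfsf12, the ligand TWEAK, fell from 19 ± 1.48 to 9.79 ± 1.58 TPM (SD, n = 3). The libraries of Tnfsf12 did not overlap between the groups, and for Tnfrsf9 the naming rule required this.

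Enzymes of arginine, polyamine and nitric oxide metabolism rose in 3 of 4 cases, beside 20.2% of all genes tested. Ass1, which makes argininosuccinate, read 4.60, 4.93 and 4.27 TPM with BAY-876 and 39.7, 38.1 and 40.5 TPM with TNF added. Asl, the next step, went from 27.4 ± 3.47 to 49.9 ± 5.49 TPM, and Odc1, the first step of polyamine synthesis, from 695 ± 9.61 to 1576 ± 38.9 TPM (SD, n = 3). Of 6 prostaglandin and lipid mediator genes 2 rose and 1 fell, a share of calls near that of all genes tested. Ptges, a prostaglandin E synthase, rose by 1.42 and the cyclooxygenase Ptgs1 fell by 0.81 on the log2 scale. The inducible cyclooxygenase Ptgs2 had a log2 difference of 0.09 (limma adjusted p = 0.520).

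**Figure D2:**
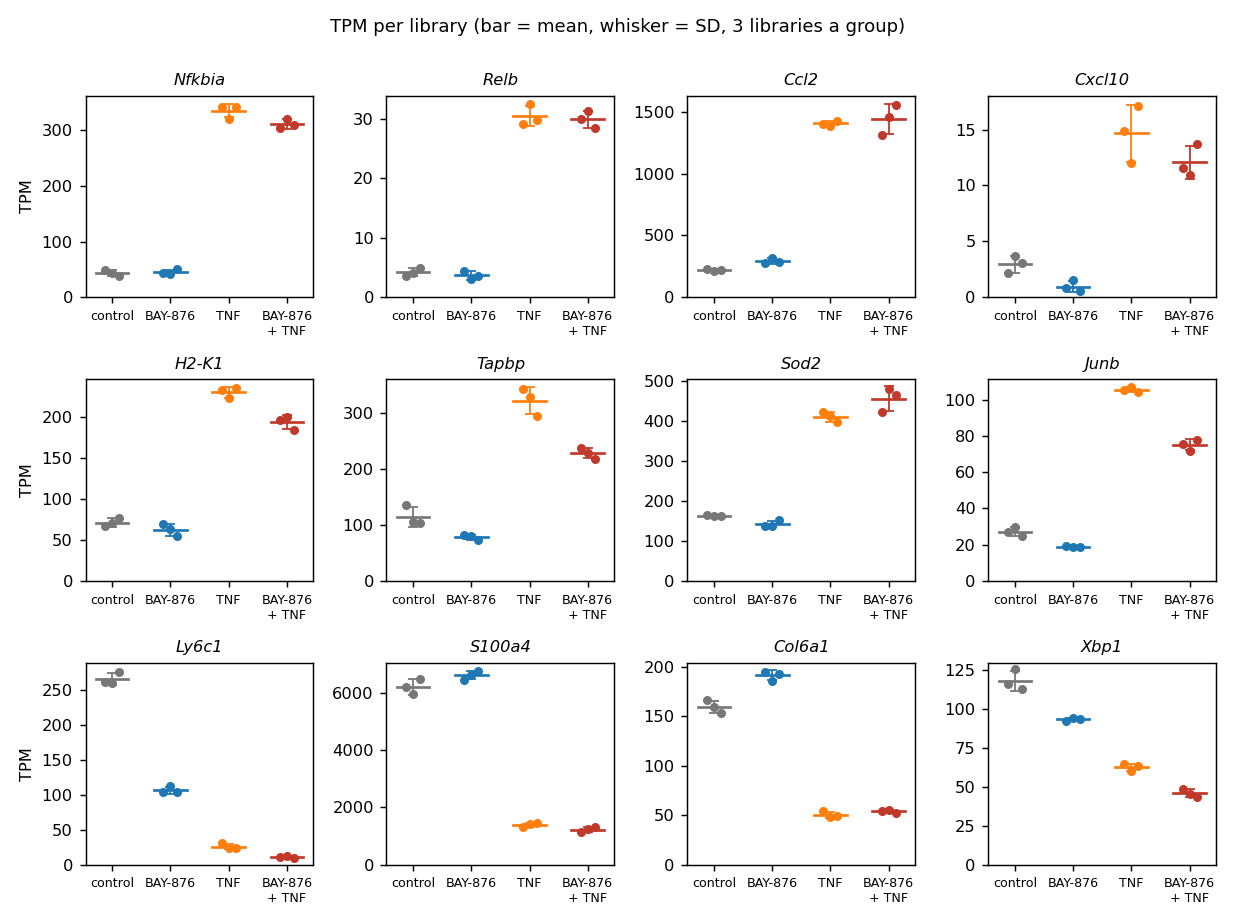
Each panel gives the TPM of 1 gene in each of the 12 libraries, with the mean as a bar and the SD as a whisker (n = 3 a group), on an axis that starts at 0. The first 8 panels show genes that rose with TNF, such as Nfkbia at 45.1 and 311 TPM with BAY-876, and the last 4 show genes that fell, such as S100a4 at 6618 and 1222 TPM.

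Collagen and other matrix genes fell. Of 10 collagen genes that passed the filter 9 were lower and none was higher, beside 25.9% and 20.2% of all genes. Their median was -1.24. Col6a2 and Col6a1, chains of the beaded-filament collagen, read 68.7 ± 2.71 and 191 ± 4.97 TPM with BAY-876 and 14.9 ± 0.679 and 54.1 ± 1.16 TPM with TNF added (SD, n = 3). Col3a1, a fibrillar collagen, read 806, 802 and 809 TPM against 329, 315 and 287 TPM. Col18a1 was the 1 tested member that did not pass. Thbs1 and Thbs2, the thrombospondins, read 13.8, 12.9 and 14.1 and 188, 183 and 191 TPM with BAY-876 and 1.05, 0.763 and 1.17 and 36.1, 33.6 and 31.6 TPM with TNF. S100a4, a calcium-binding protein linked to cell motility, fell from 6468, 6629 and 6756 TPM to 1129, 1234 and 1302 TPM and was the most abundant of the 15 largest decreases. Gsn, which severs actin, fell from 103 ± 5.59 to 20.6 ± 2.10 TPM, and Cnn2, a calponin, from 56.9 ± 1.29 to 10.5 ± 0.821 TPM.

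Matrix-cutting enzymes and their inhibitors gave 7 higher and 4 lower of 12, beside 20.2% and 25.9% of all genes tested. Without replicate 3 of BAY-876 with TNF, 4 of 11 were higher. Mmp9 (chr2:164940780-164955850, GRCm38), a gelatinase that NF-kappaB and AP-1 are known to induce, read 0.147, 0.265 and 0.277 TPM with BAY-876 and 29.6, 29.95 and 30.2 TPM with TNF added, a log2 difference of 4.65 ± 0.09 (SE, limma adjusted p = 6.01e-11). It was the largest increase among the named genes. The protease Mmp19 and the inhibitor Timp2 fell by 1.37 and 0.83 on the log2 scale.

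All 3 Ly6 surface antigens tested fell, beside 25.9% of all genes tested. Ly6c1 (chr15:75044018-75048830, GRCm38) read 105, 113 and 104 TPM with BAY-876 and 10.9, 12.9 and 10.3 TPM with TNF added, the lowest log2 difference of the named genes at -3.13 ± 0.10 (SE, limma adjusted p = 6.06e-10). Ly6a, which lies on the same chromosome 15, read 18.7, 20.1 and 19.5 TPM against 4.59, 4.25 and 4.01 TPM, and Ly6e fell by 0.26. The Ly6 genes are close paralogs, so the split of reads between them is uncertain. Of 13 checkpoint ligands and adhesion genes 4 rose and 5 fell, beside 20.2% and 25.9% of all genes tested. Quantile normalization gave 5 and 4 of the 13. Vcam1, an adhesion molecule for leukocytes, rose from 15.96 ± 1.47 to 38.6 ± 3.26 TPM, and Cd47, a signal against phagocytosis, from 33.7 ± 2.43 to 54.8 ± 1.67 TPM (SD, n = 3). Ulbp1, a ligand of the NK receptor NKG2D, fell from 53.8 ± 8.42 to 30.2 ± 1.69 TPM. Cd274, which encodes PD-L1, read 1.36, 1.46 and 1.40 TPM against 1.67, 1.73 and 1.49 TPM and did not pass (limma adjusted p = 0.465).

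Chaperones of the endoplasmic reticulum fell, with 15 of 21 lower and none higher, beside 25.9% and 20.2% of all genes tested. Their median was -0.30. Pdia4 and Pdia6, disulfide isomerases, went from 248 ± 2.84 and 912 ± 31.1 TPM to 147 ± 3.46 and 554 ± 21.7 TPM (SD, n = 3). Xbp1, a transcription factor of the unfolded protein response, read 91.8, 93.9 and 93.6 TPM against 48.4, 45.6 and 43.3 TPM. Genes induced by low oxygen also fell, 9 of 17 against 2 that rose, beside the same shares of all genes. Their median was -0.29. Hif1a, the factor stabilised by low oxygen, read 264, 249 and 272 TPM with BAY-876 and 179, 149.8 and 164 TPM with TNF added. Its targets Adm, Bnip3 and Egln3 fell by 1.47, 1.33 and 1.09 on the log2 scale, without overlap of libraries.

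**Figure D3:**
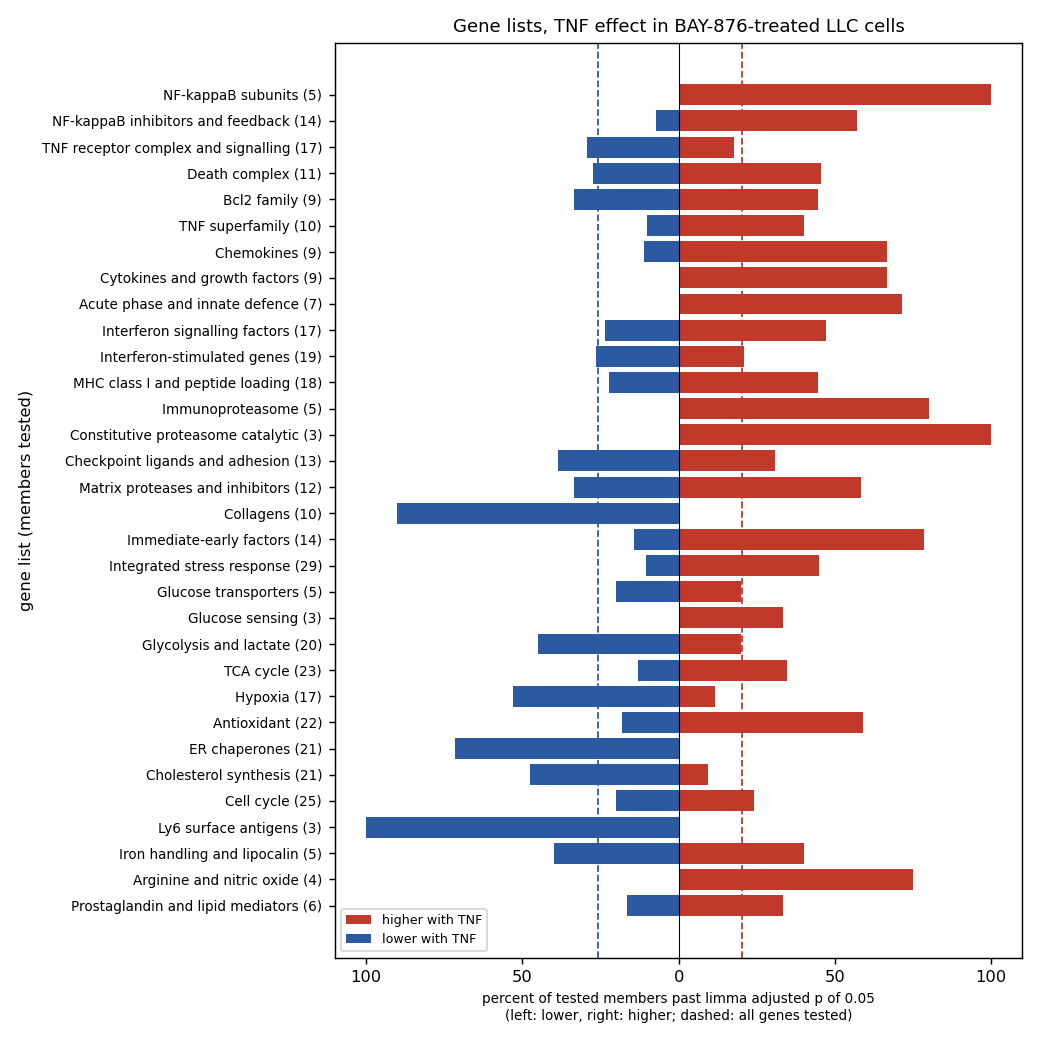
Bars give the percent of the tested members of each gene list that passed limma's adjusted p of 0.05, lower to the left and higher to the right, with the number tested in brackets. Dashed lines mark all 12200 genes, 20.2% higher and 25.9% lower, an order that turned round under both other scalings, and the NF-kappaB subunits reach 100% higher while collagens reach 90% lower.

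Glucose carriers showed no common change. Slc2a1, the target of the inhibitor, read 130.1, 111 and 121 TPM with BAY-876 and 125, 95.98 and 90.3 TPM with TNF added, and the groups overlapped (limma adjusted p = 0.0791). Its log2 difference of -0.23 became -0.37 without replicate 1 of BAY-876 with TNF (limma adjusted p = 0.000943) and passed under quantile normalization too, at -0.29 (limma adjusted p = 0.0228). Slc2a3, which encodes GLUT3, read 4.82, 6.81 and 5.01 TPM against 7.65, 6.37 and 7.65 TPM (limma adjusted p = 0.0542), and leaving out replicate 2 of BAY-876 moved its log2 difference from 0.34 to 0.47 (limma adjusted p = 0.0113). Slc2a3 passed as well under both other scalings and without replicate 2 of control or of BAY-876 with TNF, at log2 differences of 0.34 to 0.49. Slc2a6, a carrier of lysosomes, rose from 0.501, 0.301 and 0.404 TPM to 4.60, 3.91 and 4.41 TPM, and Slc2a8 fell from 6.54, 7.002 and 5.38 TPM to 2.42, 2.38 and 2.42 TPM. Slc2a10, the carrier GLUT10, read 2.91, 1.56 and 1.76 TPM against 1.61, 2.38 and 2.28 TPM, with overlap, and its sign changed when 1 of several libraries was left out.

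Glycolysis genes gave 4 higher and 9 lower of 20, beside 20.2% and 25.9% of all genes tested, with a median of -0.13. The share higher was near that of all genes. Only 2 were higher without replicate 2 of BAY-876 or replicate 1 of BAY-876 with TNF. Slc16a3, the lactate exporter MCT4, rose from 365 ± 13.7 to 529.6 ± 33.5 TPM, and Hk1 and Pfkp, enzymes of the upper pathway, fell from 67.4 ± 1.84 and 86.8 ± 5.24 to 49.9 ± 1.44 and 53.9 ± 7.87 TPM (SD, n = 3). In the citric acid cycle 8 of 23 rose and 3 fell, a share of 47.8% beside 46.1% of all genes tested, and quantile normalization gave 7 and 5. Idh1, the cytosolic isocitrate dehydrogenase, had the largest change of them, from 175, 166 and 171 TPM to 57.7, 59.1 and 57.5 TPM. Mlxip, a partner in glucose sensing, rose by 0.22 (limma adjusted p = 0.0468), a call lost without any of 8 single libraries, at adjusted p of 0.0589 to 0.141. Txnip and Arrdc4, the glucose-induced arrestins, did not reach the filter.

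Most genes called in 1 of the TNF comparisons were called in the other. Without BAY-876, 5701 of the same 12200 genes passed (46.7%), with 20.3% higher and 26.5% lower. In all, 4307 genes passed in both comparisons, which is 76.6% of those with the inhibitor and 75.5% of those without, and 4269 of these moved in the same direction. Across genes the 2 log2 differences correlated at a Pearson r of 0.819 and a Spearman rho of 0.788, a description over genes that are not independent. The test of the difference between the 2 responses called 193 genes (1.58%), of which 89 were above 0 (0.73%) and 104 below (0.852%). In 67 of them the response was larger with BAY-876 and in 65 smaller, in the same direction. In 61 the 2 log2 differences had opposite signs, and both of them passed the threshold in only 28 of these. An unadjusted p under 0.05 was reached by 1836 genes. None of the NF-kappaB subunits and inhibitors was called: the difference was -0.15 ± 0.12 for Nfkbia, 0.13 ± 0.17 for Relb and -0.06 ± 0.14 for Tnfaip3 (log2 ± SE). The standard error of the difference had a median of 0.14, so small differences were not detectable.

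**Figure D4:**
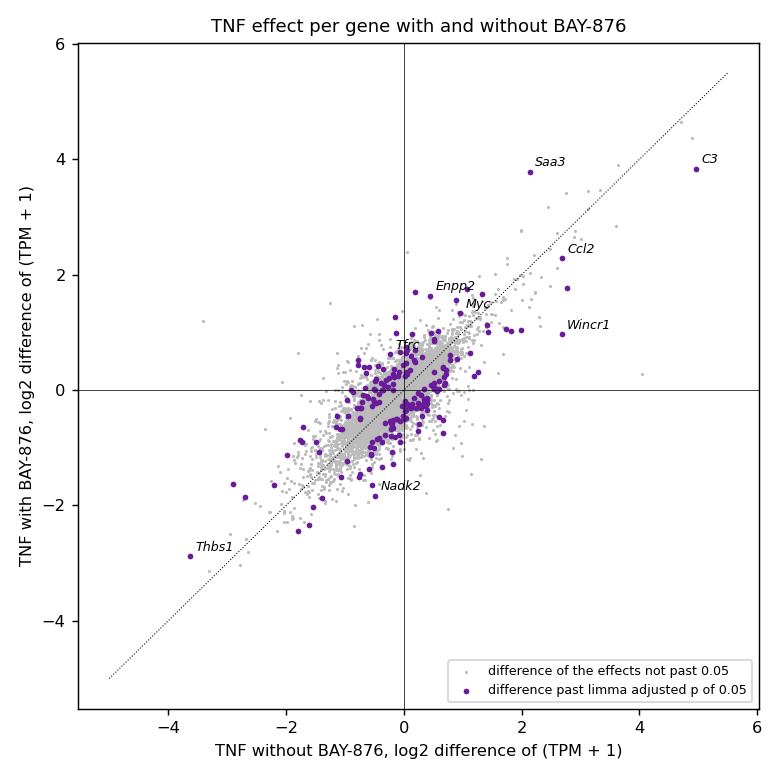
Each point is 1 of 12200 genes, with the log2 difference of (TPM + 1) for TNF without BAY-876 on the horizontal axis and with it on the vertical axis. The dotted line marks equal responses, and purple marks the 193 genes whose difference passed limma's adjusted p of 0.05, with Saa3 above the line and Wincr1 and C3 below it.

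Some genes of the integrated stress response, which ATF4 drives when amino acids or glucose run short, responded to TNF differently after BAY-876. With the inhibitor 13 of 29 rose and 3 fell, with a median of 0.13, beside 20.2% and 25.9% of all genes tested. Without it 5 rose and 13 fell, with a median of -0.11, beside 20.3% and 26.5%. The difference was called for 8 of them, all above 0, beside 0.73% of all genes tested. It was called for 5 of them without replicate 2 or 3 of control, replicate 3 of BAY-876 or replicate 1 of BAY-876 with TNF. Without this last library the median was 0.08, and without replicate 3 of its group 0.19. Cth, an enzyme of cysteine synthesis, read 28.97, 28.2 and 31.9 TPM with BAY-876 and 50, 47.8 and 44.7 TPM with TNF added, and 13.3, 13.7 and 15.5 TPM in control and 13.4, 12.2 and 14.8 TPM with TNF alone. It thus rose with TNF after the inhibitor, and its libraries without the inhibitor overlapped. Asns, asparagine synthetase, read 286 ± 5.63 and 330.3 ± 9.18 TPM with BAY-876 against 266 ± 6.17 and 223 ± 15.3 TPM without it (SD, n = 3), a difference of 0.46 ± 0.07 (SE, limma adjusted p = 0.00602). Slc7a3, a carrier of cationic amino acids, moved by 0.42 with the inhibitor and by -0.43 without it, and Gars, glycyl-tRNA synthetase, by 0.32 and -0.08. Trib3, Chac1 and Slc3a2 fell by 0.63, 0.70 and 0.35 with TNF alone and did not pass with BAY-876, where their log2 differences were -0.10, -0.08 and 0.00. Atf5 fell in both, by 1.13 without and 0.45 with the inhibitor. The calls of Trib3, Slc7a3 and Atf5 were lost in 11, 9 and 9 of the 18 other settings tried, at limma adjusted p of up to 0.103, while Cth, Asns, Chac1, Slc3a2 and Gars kept theirs in all of them. In libraries of BAY-876 alone Trib3 stood at 194 ± 13.8 TPM, against 92.4 ± 9.55 TPM in control. Atf4 and Ddit3, the factors themselves, were not called as differing, at 0.19 ± 0.06 and 0.09 ± 0.10.

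Some antioxidant genes differed as well. Of 22 genes 13 rose and 4 fell with the inhibitor, beside 20.2% and 25.9% of all genes tested. Without it 8 rose and 7 fell, beside 20.3% and 26.5%. In all, 6 differences were called, each above 0, beside 0.73% of all genes tested. The calls of Hmox1, Txnrd1 and Fth1 held in all settings, and those of Nfe2l2, Sod2 and Prdx6 did not, at limma adjusted p of up to 0.108, so that 3 remained without replicate 1 or 2 of control, replicate 1 or 2 of BAY-876 or replicate 2 or 3 of TNF. Hmox1, heme oxygenase, read 32.8, 35.1 and 35.9 TPM with BAY-876 and 60.4, 53.6 and 56.8 TPM with TNF added, against 26.2, 26.4 and 27.1 TPM in control and 29.1, 26.4 and 27.6 TPM with TNF alone. The increase was seen in the libraries with the inhibitor, and those without it overlapped (difference 0.64 ± 0.08, SE, limma adjusted p = 0.00372). Txnrd1, thioredoxin reductase, was lower with BAY-876 alone at 140.1 ± 0.423 TPM than in control at 205 ± 3.73 TPM, and with TNF added it read 189.6 ± 10.3 TPM beside 203 ± 2.90 TPM for TNF alone. The other called genes were Prdx6 (0.28), Nfe2l2 (0.30), Sod2 (0.34) and Fth1 (0.25, all log2). Sod2, the mitochondrial superoxide dismutase, rose in both settings, from 143 to 457 TPM with the inhibitor and from 163 to 412 TPM without. Tfrc, the transferrin receptor that brings in iron, read 47.2, 42.1 and 41.3 TPM with BAY-876 and 72.2, 60.8 and 70.1 TPM with TNF added, against 83.9, 78.98 and 80.7 TPM and 64.6, 67.9 and 75.8 TPM without the inhibitor. The 3 libraries of BAY-876 alone were the lowest of the 12, with a difference of 0.85 ± 0.11 (SE, limma adjusted p = 0.00372).

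In cholesterol synthesis the called differences lay below 0. With BAY-876, 2 of 21 genes rose with TNF and 10 fell, with a median of -0.17, beside 20.2% and 25.9% of all genes tested. Without it 7 rose and 3 fell, with a median of 0.14, beside 20.3% and 26.5%. The difference was called for 3 genes, all below 0, beside 0.852% of all genes tested. Without replicate 1 of BAY-876 with TNF, and under both other scalings, 5 were called, and without replicate 3 of that group 6 genes fell. Fdps, which makes farnesyl diphosphate, read 175, 160.1 and 186 TPM with BAY-876 and 147, 144 and 130.4 TPM with TNF added, against 105, 102 and 104 TPM in control and 131, 133 and 119.7 TPM with TNF alone. It thus fell with TNF after the inhibitor and rose without it. Msmo1, a later step of the pathway, rose by 0.52 without the inhibitor and had a log2 difference of 0.02 with it, which did not pass. The difference of Msmo1 was lost without replicate 3 of BAY-876 (limma adjusted p = 0.0518). Hif1a fell by 0.67 with and 0.22 without the inhibitor, a difference of -0.45 ± 0.08 (SE, limma adjusted p = 0.0189). Leaving out replicate 2 of control or of TNF, or replicate 1 or 3 of BAY-876, put that adjusted p at 0.0505 to 0.0536.

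**Figure D5:**
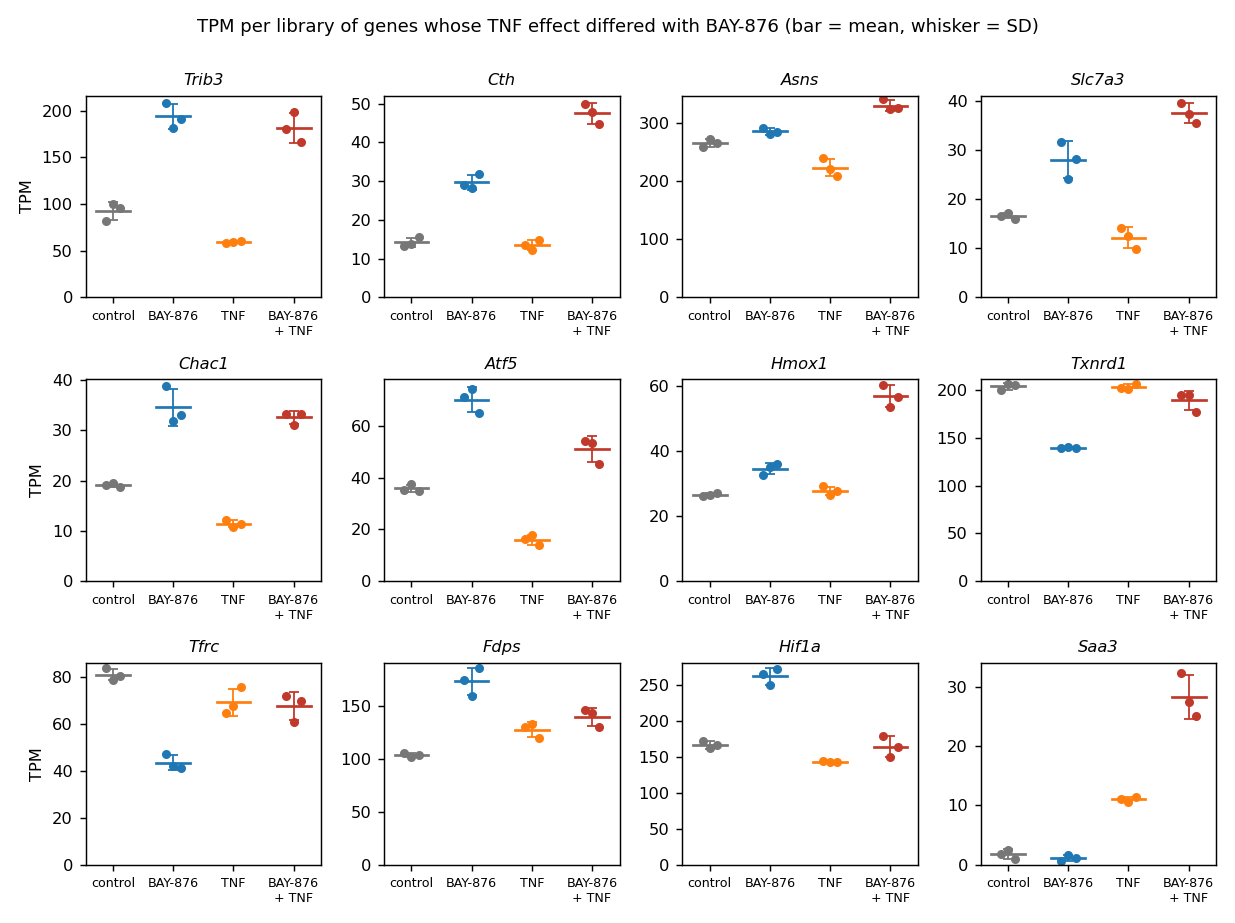
Each panel gives the TPM of 1 gene in the 12 libraries, with the mean as a bar and the SD as a whisker (n = 3 a group), for genes whose response to TNF differed with BAY-876. Cth and Hmox1 rose with TNF in the BAY-876 groups, from 29.7 to 47.5 and from 34.6 to 56.9 TPM, and Tfrc was lowest with BAY-876 alone at 43.5 TPM.

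The largest differences among genes at 5 TPM or more were single genes of several kinds. Saa3 rose more with the inhibitor, as it read 1.88, 2.54 and 1.02 TPM in control and 11.2, 10.6 and 11.4 TPM with TNF alone, a difference of 1.65 ± 0.29 (log2 ± SE). Its call was lost with a pseudocount of 0.1 TPM (limma adjusted p = 0.0594). Enpp2, autotaxin, which makes lysophosphatidic acid, went from 5.88 ± 0.380 to 20.5 ± 3.03 TPM with BAY-876 and from 11.1 ± 2.03 to 15.6 ± 2.73 TPM without it (SD, n = 3), a difference that missed the threshold without replicate 2 of BAY-876 (limma adjusted p = 0.0512). Srl, the calcium-binding sarcalumenin, read 12.6, 13.3 and 12.1 TPM and 23.6, 26.8 and 28.5 TPM with the inhibitor, and 24.8, 17.2 and 19.7 TPM and 16.5, 20.8 and 18.1 TPM without it (difference 1.14, limma adjusted p = 0.00843). Its libraries overlapped without the inhibitor and did not with it. Plxnd1 and Acer3 had opposite signs, with log2 differences of 0.43 and 0.40 with and -0.78 and -0.67 without the inhibitor. The value of Plxnd1 with the inhibitor missed the threshold without replicate 1 or 2 of BAY-876 or replicate 2 of BAY-876 with TNF. Fbn1, the microfibril protein fibrillin, fell less with the inhibitor, by 0.64 against 1.71.

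On the other side, Nadk2, the mitochondrial NAD kinase, read 176, 161 and 186 TPM with BAY-876 and 50.8, 44.4 and 49.5 TPM with TNF added, against 41.9, 43.2 and 41 TPM in control and 35.4, 26.7 and 28 TPM with TNF alone. The level with the inhibitor alone stood far above the other groups, and the difference between the responses was -1.35 ± 0.13 (SE, limma adjusted p = 0.00187). Nptx1, a neuronal pentraxin, showed the same order, at 62.3 ± 2.19, 25.03 ± 1.58, 21.9 ± 0.0776 and 19.1 ± 0.155 TPM in those groups (SD, n = 3). Slco4a1, an organic anion carrier, fell by 0.46 with and rose by 0.61 without the inhibitor. Adamts7, a matrix protease, and the long noncoding RNA Wincr1 rose in both, but less with BAY-876: Adamts7 by 1.78 against 2.78 and Wincr1 by 0.97 against 2.68. Clec1a fell more with the inhibitor, by 1.34 against 0.37. C3 read 0.163, 0.267 and 0.121 TPM in control and 36.4, 36.1 and 35.5 TPM with TNF alone, and its difference of -1.12 (limma adjusted p = 0.0177) was lost with a pseudocount of 0.1 TPM (adjusted p = 0.259) and without replicate 2 of TNF (adjusted p = 0.0526).

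The authors' deposited table of the same comparison, made with DESeq2, called 5130 of the 12135 genes it shares with those tested here, 2743 of them higher and 2387 lower. Of these, 4701 were also called by limma, all with the same sign, which is 91.6% of the calls in the authors' deposited table and 83.7% of limma's 5619. For Nfkbia the authors' deposited table gives a log2 fold change of 2.85, for Mmp9 7.08 and for Ly6c1 -3.18, without the added 1 TPM of the scale used here.

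The TPM values carry no depth, so no counting interval could be given. The labels name no batch, and the count of genes whose response differed moved more, in proportion, between left-out libraries than the count of TNF-responsive genes did.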

How the data were processed

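RNA of wild type LLC cells was extracted with Trizol and made into libraries with a SMARTER mRNA-seq kit, per the labels. The authors deposited TPM values per gene, which carry no depth, so precision rests on the 3 libraries of each group. Tools listed without a role in the submitters' processing notes are DESeq2 1.34.0, Salmon 0.13.1 and STAR 2.6.1d, and the build is mm10. Neither the annotation nor the use of strand is given in the sources used here. The authors' deposited tables of comparisons hold a mean normalized count signal, log2 fold changes and p-values per gene, of which the log2 fold changes and adjusted p were used.

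Of 36 value columns, the 12 of the 32 h groups were used and 24 that match no sample given here were not. Genes at 1 TPM or more in 3 or more of the 6 libraries with BAY-876 were kept, 1 was added, and limma 3.58.1 (R 4.3.3) was fitted to log2 values of all 12 libraries with a mean-variance trend and Benjamini-Hochberg adjustment over 12200 genes at 0.05. The fit gave TNF with BAY-876, TNF without it and their difference. On simulated data with 12200 genes, 75% of 100 changes of 0.5 and 99% of 100 changes of 1 (log2) were recovered for TNF with BAY-876, with 10 false calls. The changes were planted only in genes with a mean log2(TPM + 1) above 3 with BAY-876, and the noise was independent and normal. Far fewer genes were changed than the data called, so these rates do not cover low genes or a response this broad. The alternatives were a pseudocount of 0.1 TPM, no filter, a mean of 5 TPM, quantile normalization, median-ratio scaling, a replicate block, a fit of the compared libraries and each library left out.

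The members and the 32 gene lists (395 genes tested) were chosen with earlier results of these data known. Named genes were the 15 highest and 15 lowest at 5 TPM or more without overlap and past the threshold, predicted genes left out, the 4 genes of smallest p in each list, every Slc2a gene and the 8 highest and 8 lowest differences past the threshold at 5 TPM or more. Other list members were named for their role after their values were seen, and so were the genes outside this rule. Some genes that the rule names are not reported here, and counts over lists and over all genes include them. Gene coordinates are GENCODE M21 on GRCm38, and promoter windows are RefSeq on GRCm38.p6.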

Additional observations from a re-analysis of the deposited data

Results flagged for a closer look

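In 43 genes named by the rule or taken from the lists the response to TNF with BAY-876 differed from that without it, by limma's test of the difference, at an adjusted p of 0.000132 for Nptx1 to 0.0496 for Ccl2. All values here are that difference on the log2(TPM + 1) scale, with minus without the inhibitor, n = 3 libraries a group.

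Among genes of the extracellular space and the cell surface, values below 0 were -1.12 for C3, -1.09 for Nptx1, -1.06 for Slco4a1, -1.0 for Adamts7, -0.97 for Clec1a, -0.95 for Col8a1, a short-chain collagen, -0.65 for Thbs2, -0.59 for Tnfrsf12a, the receptor of TWEAK, and -0.39 for Ccl2. Values above 0 were 1.65 for Saa3, 1.41 for Mmp23, 1.21 for Plxnd1, 1.19 for Enpp2, 1.07 for Fbn1, 0.85 for Tfrc and 0.74 for Thbs1. The difference of Mmp23 was the least precise of these, at a standard error of 0.30. Its libraries read 2.34, 1.26 and 2.08 TPM with BAY-876 and 5.63, 8.31 and 4.22 TPM with TNF added, against 3.16, 2.43 and 2.53 TPM and 2.83, 2.43 and 1.84 TPM without the inhibitor.

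Genes of amino acid supply and the stress response had values of 0.85 for Slc7a3, 0.73 for Cth, 0.68 for Atf5, 0.62 for Chac1, 0.53 for Trib3, 0.46 for Asns, 0.40 for Gars and 0.35 for Slc3a2. Hspa5, the chaperone BiP, had 0.22. Antioxidant and iron genes had 0.64 for Hmox1, 0.44 for Txnrd1, 0.34 for Sod2, 0.30 for Nfe2l2, 0.28 for Prdx6 and 0.25 for Fth1. Cholesterol genes had -0.60 for Fdps and -0.50 for Msmo1.

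Carbon metabolism gave 0.26 for Slc16a1, the lactate carrier MCT1, -0.33 for Tpi1, a glycolytic isomerase, and -1.35 for Nadk2. Regulators gave 0.38 for Myc, -0.45 for Hif1a and -0.49 for Fosl2, an AP-1 subunit. The remaining values were -1.72 for the noncoding RNA Wincr1, -0.74 for the calponin Cnn2, 1.07 for the ceramidase Acer3 and 1.14 for Srl. Of the 43 calls, 19 were lost under at least 1 other setting.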

How the results depend on the processing

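The number of genes called for TNF with BAY-876 was 4876 to 5754 under the settings that kept all libraries and 4781 to 5606 with 1 library left out, against 5624. Without BAY-876 it was 4842 to 5776 and 4974 to 5739. The number of genes whose response differed was 177 to 261 with all libraries and 111 to 250 with 1 left out, against 193: it was 112 without replicate 2 and 117 without replicate 3 of BAY-876, 111 and 121 without replicates 2 and 3 of TNF, and 125 and 115 without replicates 1 and 2 of control. Deviations of same-numbered libraries from their group means correlated at r above 0.1 in 3 of 18 pairs (r from -0.21 to 0.14). Those of other-numbered libraries did so in 8 of 36 pairs (r from -0.22 to 0.22). With 3 libraries a group, such correlations cannot exclude a shared culture or batch. The replicate block gave 5596, 5668 and 177 calls for the 3 tests.

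Of 161 named genes called for TNF with BAY-876, 146 were tested in all 19 settings, and 140 of these kept the call in every one. The other 15 fell below the filter in some settings and kept the call in the 15 to 18 that tested them. No called gene changed sign, and those that lost the call were Mlxip, Plxnd1, Ikbkb, Ripk1, Slc7a3 and Asns. Asns was 0.08 under quantile normalization (limma adjusted p = 0.156), and Slc7a3 0.32 without replicate 2 of BAY-876 (0.0561). Mlxip missed in 3 settings with all libraries (0.0538 to 0.102). Values that had not passed changed sign in these cases, none past the threshold. Under quantile normalization Mlxipl became 0.049, Gch1 0.13, Slc3a2 -0.082 and Tap1 0.021. Under median-ratio scaling Tnfrsf12a became 0.020 and Tap2 0.00020. With 1 library left out, the lowest and highest values were -0.10 and 0.21 for Slc2a10, -0.13 and 0.0030 for Chac1, -0.0036 and 0.14 for Col18a1, -0.032 and 0.048 for Msmo1, -0.030 and 0.026 for Slc3a2 and -0.055 and 0.013 for Tnfrsf12a.

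Of 43 named differences, 24 kept the call in every setting and none changed sign. With all libraries kept, 15 lost it somewhere, with adjusted p of 0.0507 to 0.303. With a pseudocount of 0.1 TPM these were C3 (0.259), Thbs1 (0.109), Saa3 (0.0594) and Ccl2 (0.0507). Under another scaling they were Hspa5 (0.303), Ccl2 (0.0905), Nfe2l2 (0.0659 and 0.0533), C3 (0.0597) and Sod2 (0.0594). With no filter they were Ccl2, Mmp23, Trib3, Sod2, Thbs1, Slc7a3, Tpi1, Atf5 and Fosl2, and with the replicate block Nfe2l2, Trib3, Fosl2, Ccl2, Sod2, Slc16a1, Mmp23 and Prdx6. Hif1a, Myc, Enpp2 and Msmo1 lost it only when a library was left out. The cause was not tested. TPM values carry no depth, so no limit of detection could be given.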

Other observations

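Several further gene families moved with TNF in BAY-876-treated cells. They were chosen after their values were seen, so no test was made of any family. Some members are also in the lists above, such as Psmb5, Psmb6 and Psmb7 of the proteasome and Gars of the tRNA synthetases. Subunits of the proteasome, which degrades tagged proteins, were mostly higher, beside 20.2% of all genes. The 20S core had 13 of 14 higher (median 0.33) and the 19S cap 18 of 20 (median 0.38). Under quantile normalization the core had 11 higher and 1 lower, and the cap 16 higher. All 8 tested subunits of the cytosolic chaperonin, which folds actin and tubulin, were higher (median 0.35, and 7 of 8 under quantile normalization). Of 40 ribosome biogenesis factors 34 were higher and 1 was lower, with a median of 0.54. Ncl, nucleolin, went from 846 to 1252 TPM, and Nop56 and Fbl, of the complex that methylates ribosomal RNA, from 529.9 and 253 to 793 and 374 TPM. The cytosolic ribosomal proteins themselves gave 16 higher and 9 lower of 82, counting pseudogenes of the same name, and 18 and 2 under median-ratio scaling.

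All 8 tested S100 genes, small calcium-binding proteins, were lower, with a median of -1.16 beside 25.9% of all genes lower. S100a6 went from 2801 to 1153 TPM, S100a10 from 992 to 553 TPM and S100a11 from 917 to 428 TPM. Of 12 Hox factors, which set position along the body axis, 10 were lower and none higher (7 lower under quantile normalization). Of 12 semaphorins, guidance ligands, 7 were lower and 2 higher. Sema3a went from 74.5 to 23.2 TPM, and its response with minus without the inhibitor was 0.56 (limma adjusted p = 0.00372). Of 19 cytosolic aminoacyl-tRNA synthetases, which charge transfer RNA and are among known ATF4 targets, 13 were higher and none lower with the inhibitor, against 5 and 3 without it. The difference between these responses was called for 2 of them, both above 0, beside 0.73% of all genes tested. Quantile normalization gave 12 higher and 1 lower of the 19 with the inhibitor.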
